A study of Pyrus ussuriensis with 15 samples.

Results

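Of 42812 pear gene models with an ID that starts with Pbr, and of 44681 in the deposited table, 6 were high on day 9 of adventitious root formation and low on every other sampled day. They were selected on measured values: the lowest of the 3 day 9 libraries had to hold at least 2.5 times the CPM (the count of a model scaled to the total of its library) of the highest of the 12 other libraries, the day 9 mean had to reach 2 CPM, and the day 12 mean had to stay under 2 times the day 0 mean. The height of the day 9 peak and the limit on day 12 are therefore given as a description, with no test. The messenger RNA came from *Pyrus ussuriensis* Maxim, an Asian pear, whose buds had been subcultured for 25 days and then placed on a rooting medium that held 30 g/L sucrose and, at 0.5 mg/L, the auxin indole-3-butyric acid (IBA). The base of this medium was Murashige and Skoog (MS) medium at 1/2 strength, with 7.5 g agar at pH 6.0, the same for all libraries. Rooting was sampled at day 0 and then every 3 days up to day 12, with 3 libraries on each of these 5 days, and the labels give no difference in genotype or treatment between the days. All of the libraries, those of day 0 included, carry the tissue label adventitious roots, and the series title counts 4 stages where the design text gives 5 days. Whether the numbered replicates are separate cultures is not stated, and the spread behind each p-value may therefore be technical.

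Adventitious roots form on organs other than roots, such as shoots and leaves. As background, auxin is the main hormone that starts them: cells near the vascular tissue re-enter division, organise into a root primordium, and the primordium then grows out through the surrounding tissue. IBA is widely used for this in cuttings and tissue culture, where cells convert it to indole-3-acetic acid, the main natural auxin. The table pairs no ID with a gene name or description, so what the 6 models encode is not stated here, and the tissue label could not be set against marker genes. In whole-tissue RNA, a change in the share of cells that express a gene and a change in RNA per cell cannot be told apart.

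The libraries held 11953240 to 17878524 counts. Replicates of day 6 were the least alike, with Pearson's r across genes from 0.939 to 0.948, against 0.963 to 0.985 within the other days, and day 6 replicate 2 was the lowest day 6 library in 4 of the 6 models below. Across genes, however, replicate 2 was not the odd one of day 6. The lowest r, 0.939, was between replicates 1 and 3, and replicate 2 had 0.948 and 0.946 with these. Day 9 libraries held more counts on short models: averaged over counts, model length was 1273 to 1290 bases at day 9 and 1532 to 1638 bases on the other days.

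The 6 models together took 64.4 to 77.9 CPM in the day 9 libraries and 5.83 to 11.7 CPM in the 12 others. Each lay on a scaffold of its own, and none overlapped another model. Over the Pbr models, 17 reached the margin of 2.5, of which 8 fell short of 2 CPM at day 9 and 3 exceeded the day 12 limit. All 3 day 9 libraries lay above the 12 others in 2528 of the 20274 Pbr models that met the other 2 criteria, or 12.5%, and the 6 are among these by the way they were chosen. Of the 20274, 13 had a margin between 2 and 2.5.

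**Figure D1:**
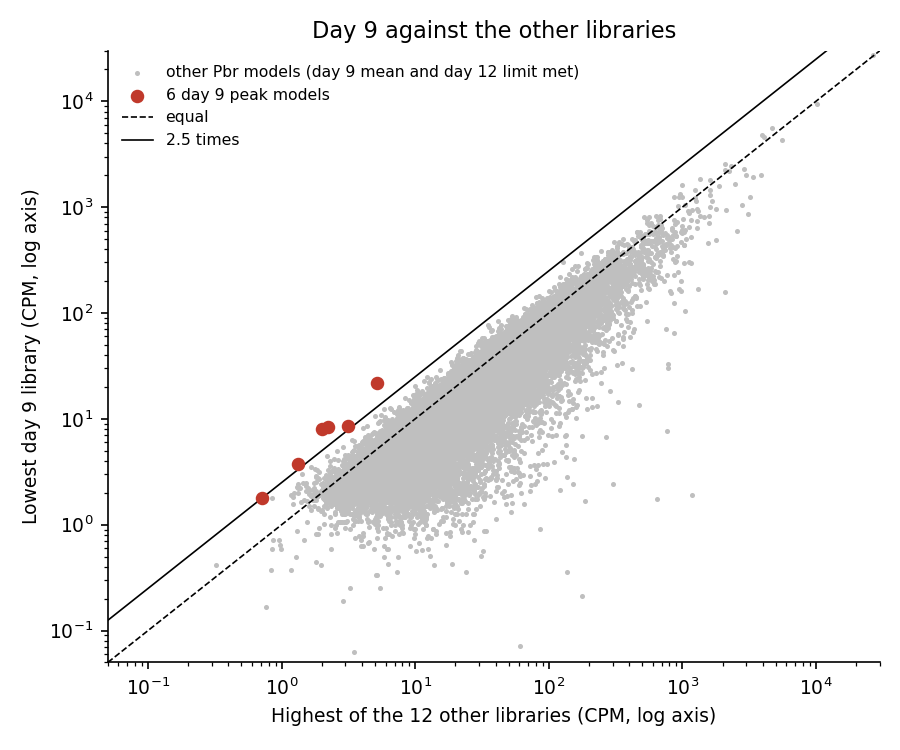
Each point is 1 of the Pbr models that met the day 9 mean and the day 12 limit, with its highest CPM among the 12 other libraries on the x axis and its lowest day 9 CPM on the y axis, both on log axes; models with a 0 on either axis are not drawn. The 6 day 9 peak models (red) lie on or above the solid line of 2.5 times, and the widest margin is 4.22.

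Pbr039381.1 had the widest margin and the highest day 9 count. It is a model on the plus strand of scaffold84.0 (518395 to 519852), with a coding length of 1188 bases. It had 3.38, 2.16 and 4.39 CPM on day 0, 0.790, 1.10 and 0.488 CPM on day 3, 5.16, 0.583 and 4.68 CPM on day 6, 21.8, 30.2 and 26.3 CPM on day 9, and 3.84, 3.80 and 3.64 CPM on day 12. The day 9 libraries stood above all others, the day 3 libraries lay below all of days 0 and 12, and day 6 replicate 2 lay at the day 3 level while day 6 replicates 1 and 3 did not. The day 9 mean of 26.1 ± 4.22 CPM (SD, n = 3) was 7.51 times the day 6 mean and 6.94 times the day 12 mean, and 67.1% of the model's 1615 counts came from day 9.

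Pbr017078.1 lies on the minus strand of scaffold254.0 (195481 to 197286), with a coding length of 366 bases. It had 1.69, 2.02 and 1.88 CPM on day 0, 0.729, 2.00 and 1.53 CPM on day 3, 1.59, 1.36 and 1.44 CPM on day 6, 20.2, 7.95 and 11.01 CPM on day 9, and 1.63, 1.42 and 1.62 CPM on day 12. Off the peak it was flat, with 11 of the 12 libraries between 1.36 and 2.02 CPM and day 3 replicate 1 at 0.729 CPM. At the peak it varied most of the 6, with a coefficient of variation of 48.9% over the day 9 libraries and replicate 1 at 2.54 times replicate 2. Its day 9 mean was 13.1 ± 6.38 CPM (SD, n = 3), 8.90 times the day 6 mean and 8.39 times the day 12 mean.

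Pbr040626.1 lies on the minus strand of scaffold9.0 (531730 to 532960), with a coding length of 693 bases, and had the largest fold of the 6. It had 1.37, 2.23 and 0.696 CPM on day 0, 0.790, 0.482 and 0.488 CPM on day 3, 2.05, 0.454 and 0.808 CPM on day 6, 8.35, 12.8 and 16.5 CPM on day 9, and 0.912, 0.511 and 0.839 CPM on day 12. Its day 9 mean of 12.6 ± 4.10 CPM (SD, n = 3) was 13.0 times the mean of the 12 other libraries, 11.4 times the day 6 mean and 16.7 times the day 12 mean. Its day 12 mean was 0.527 times its day 0 mean, the lowest such ratio of the 6, though day 0 and day 12 libraries overlapped. Of its 709 counts, 75.2% came from day 9.

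Pbr023286.2 lies on the plus strand of scaffold357.0 (17917 to 21139), with a coding length of 471 bases. It had 2.86, 2.16 and 2.65 CPM on day 0, 2.43, 2.27 and 3.14 CPM on day 3, 1.97, 1.88 and 2.25 CPM on day 6, 8.57, 16.4 and 17.7 CPM on day 9, and 2.34, 2.67 and 2.52 CPM on day 12. The 12 libraries off the peak spanned 1.88 to 3.14 CPM, and day 9 replicate 1 lay well below day 9 replicates 2 and 3. Its day 9 mean was 14.2 ± 4.95 CPM (SD, n = 3), 6.99 times the day 6 mean and 5.67 times the day 12 mean. The day 12 mean was 0.982 times the day 0 mean.

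Pbr020858.1 lies on the plus strand of scaffold31.0 (782334 to 784822), with a coding length of 615 bases. It had 0.586, 0.696 and 1.32 CPM on day 0, 0.851, 0.482 and 0.348 CPM on day 3, 0.607, 0.843 and 0.635 CPM on day 6, 3.71, 4.77 and 4.21 CPM on day 9, and 0.651, 0.397 and 0.783 CPM on day 12. Its day 9 libraries agreed closely, with a coefficient of variation of 12.5%, and the libraries of the other 4 days overlapped each other. The peak rests on 52 to 67 counts in the day 9 libraries, against 5 to 19 counts in the 12 others.

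Pbr009372.1, the shortest and least abundant by CPM, lies on the plus strand of scaffold16.0 (135790 to 136005), with a coding length of 216 bases equal to its span. It had 8, 6 and 4 counts on day 0, 5, 7 and 5 counts on day 3, 4, 11 and 5 counts on day 6, 25, 27 and 34 counts on day 9, and 4, 10 and 2 counts on day 12. Its lowest day 9 library was replicate 1, at 1.79 CPM with an exact 95% Poisson interval of 1.16 to 2.64 CPM. Its highest other library was day 6 replicate 2, at 0.713 CPM with an interval of 0.356 to 1.28 CPM. The intervals cover counting error only and overlap, so for this model the margin of 2.504 is loosely fixed. The day 9 mean was 2.06 ± 0.246 CPM (SD, n = 3), 4.74 times the day 6 mean and 6.58 times the day 12 mean.

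**Figure D2:**
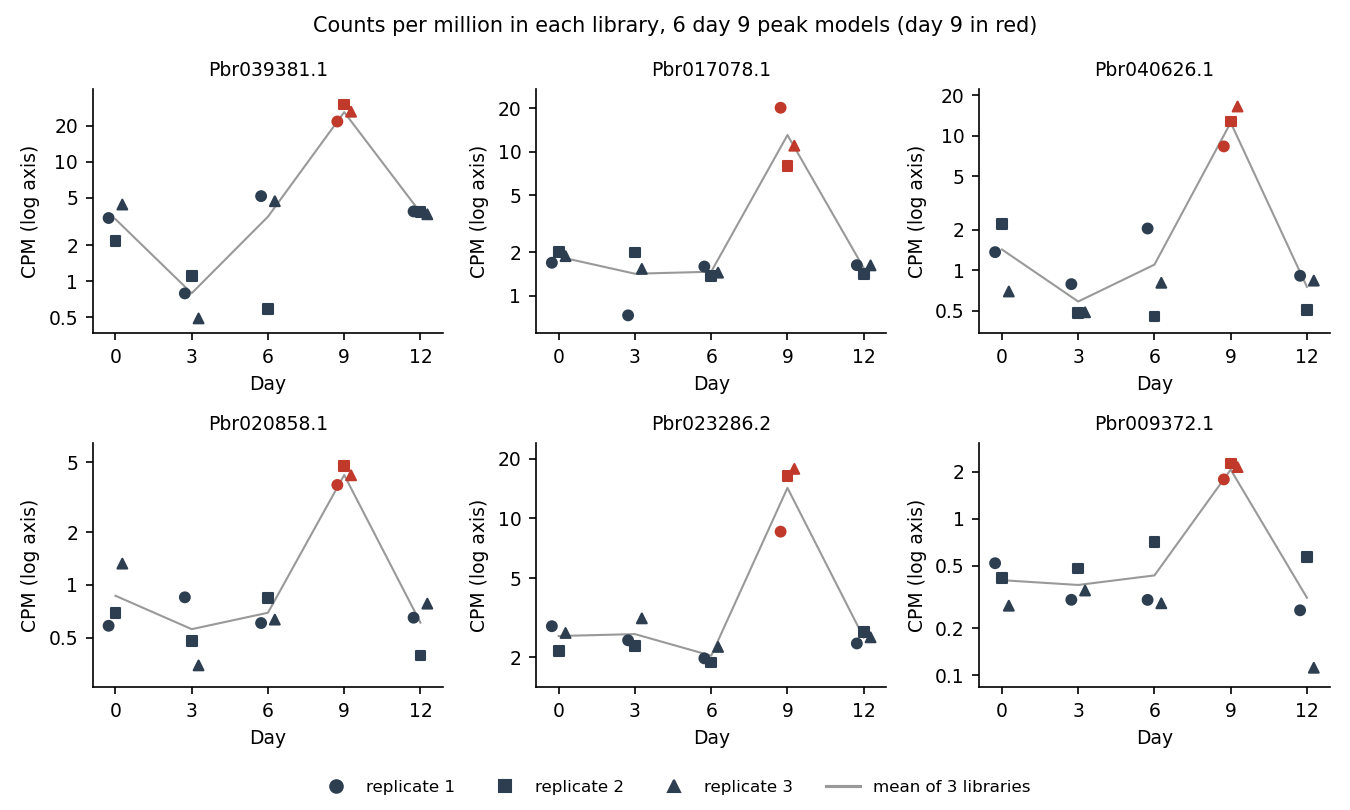
CPM (log axis, a scale of its own in each panel) against the day for the 6 models, with the 3 replicates as circles, squares and triangles and their mean as a line. The day 9 libraries (red) lie above the other 12 in each panel, and in Pbr039381.1 the day 3 libraries and day 6 replicate 2 lie at 1.10 CPM or less.

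Per length the order of the 6 was different. By FPKM, the authors' count scaled to both the model's length and the library's total, the day 9 means were 35.7 ± 17.4 for Pbr017078.1, 30.2 ± 10.5 for Pbr023286.2, 21.96 ± 3.55 for Pbr039381.1, 18.1 ± 5.91 for Pbr040626.1, 9.54 ± 1.14 for Pbr009372.1 and 6.88 ± 0.859 for Pbr020858.1 (SD, n = 3 each). The first 4 in this order overlapped with their neighbours in the order, and Pbr009372.1 and Pbr020858.1 did not overlap with each other or with the 4 above. These day 9 FPKM levels lay above those of 64.7% to 86.9% of all Pbr models, whereas the mean levels over the 12 other libraries lay above 42.0% to 58.1% of them. The 6 were thus measured near the middle of the range of all Pbr models off the peak and in its upper part at the peak. Against the 27440 Pbr models tested they were lower placed. Off the peak they had 1.11 to 5.16 FPKM, below the median of 10.3 over those models. At day 9 that median was 8.64 FPKM, and Pbr020858.1 stayed below it.

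The day 9 libraries themselves were not equal. Replicate 1 was the lowest of the 3 in 5 of the 6 models, and in Pbr017078.1 it was the highest. Without day 9 replicate 1 the rule took 15 models, the 6 among them, and without day 9 replicate 2 it took 7, of which Pbr009372.1 was not one. Over the other left-out libraries the number ran from 6 to 9, with the 6 always included.

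Whether the 6 models had moved before the peak was asked by comparing day 3 with day 0. The choice of models bears on this comparison, since it held both days under the day 9 level and, through the day 12 limit, kept out models with a low day 0 mean. The 3 models which that limit kept out all had a higher mean at day 3 than at day 0, with 5.48 and 1.52 CPM in Pbr021222.2, 0.935 and 0.381 CPM in Pbr041183.5, and 0.158 and 0.0232 CPM in Pbr001456.2. Their absence can shift the counts over the 6 towards lower values at day 3. Pbr039381.1 fell, to 0.793 ± 0.307 CPM at day 3 against 3.31 ± 1.12 CPM at day 0 (SD, n = 3 each), with a log2 fold change of -2.03 ± 0.592 (SE) and an adjusted p of 0.0483 in the quasi-likelihood test of edgeR, adjusted by Benjamini-Hochberg over all 29134 models tested. The other 5 were not called. Pbr040626.1 had the next largest change, with 0.587 ± 0.176 CPM at day 3 and 1.43 ± 0.767 CPM at day 0 and changed by -1.23 ± 0.549 on the log2 scale (SE, edgeR adjusted p = 0.179). Thus 1 of the 6 was called lower and none higher, where 4.90% of all tested models were called lower and 4.47% higher. Nothing is read from these counts about a direction shared by the 6.

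In edgeR the call of Pbr039381.1 was close to its threshold. It was lost whenever any 1 of the 6 libraries of day 0 and day 3 was omitted, with adjusted p from 0.0673 to 0.146. It was also lost with the replicate block (adjusted p = 0.0714) and with no filter on low counts (adjusted p = 0.0509). The call was kept in edgeR with only the 2 days compared (adjusted p = 0.0326), with the length trend removed (0.0480) and with RLE factors (0.0490). DESeq2 also called the model lower, with a log2 fold change of -2.03 and an adjusted p of 0.00628. The log2 fold change ran from -2.31 to -1.76 over the left-out libraries.

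At day 6, the last sampled day before the peak, none of the 6 models was called against day 0, where 5.30% of all tested models were called higher and 4.26% lower. None had an unadjusted p under 0.05 in edgeR either, where 7463 of the 29134 tested models did. DESeq2 called 0 of the 6, against 7.24% of the models higher and 5.31% lower. The day 12 limit bears on this too: the 3 models it kept out had means of 6.84, 1.02 and 0.186 CPM at day 6 and 1.52, 0.381 and 0.0232 CPM at day 0, in the order given above, so the lack of higher calls among the 6 is partly set by how they were chosen. The log2 fold changes ran from -0.34 for Pbr040626.1 to 0.14 for Pbr009372.1, with standard errors from 0.269 to 0.525. A missed threshold does not show that the levels on day 6 and day 0 were equal. Off the peak the 6 also lay below the median FPKM of the Pbr models tested. The shares over all tested models, here and in the other comparisons, were not matched for level. At day 6 against day 3, edgeR called 0% of all tested models higher or lower, although 4111 of them had an unadjusted p under 0.05. Pbr039381.1 was at 3.47 ± 2.51 CPM on day 6 and 0.793 ± 0.307 CPM on day 3 (SD, n = 3 each), a log2 difference of 2.14 ± 0.590 (SE, edgeR adjusted p = 0.211). Without day 6 replicate 2 the log2 difference was 2.66 and edgeR called the model higher (adjusted p = 0.00143), in a fit that called 3.62% of all tested models higher. That replicate held the model's lowest day 6 value, 0.583 CPM against 5.16 and 4.68 CPM in replicates 1 and 3. Without any other single library of day 6 or day 3, edgeR did not call the model (adjusted p from 0.242 to 0.488). With all libraries DESeq2 called it higher (adjusted p = 0.0242), and 1.23% of the models it tested. No other model of the 6 was called at day 6 against day 3 in any of these fits. With all libraries in edgeR, 1 of the 6, Pbr039381.1, had an unadjusted p under 0.05.

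After the peak the 6 models were compared with their level before it, on day 12 against day 6. None was called higher or lower, where 10.6% of all tested models were called higher and 10.7% lower. None had an unadjusted p under 0.05 in edgeR, where 9610 of the 29134 tested models did. DESeq2 called 0 of the 6, against 10.6% of the models higher and 11.4% lower. Pbr040626.1 averaged 0.754 ± 0.214 CPM at day 12 and 1.10 ± 0.838 CPM at day 6 (SD, n = 3 each), a log2 difference of -0.52 ± 0.540 (SE, edgeR adjusted p = 0.551). Pbr023286.2 averaged 2.51 ± 0.161 CPM at day 12 and 2.03 ± 0.194 CPM at day 6 (SD, n = 3 each), a log2 difference of 0.30 ± 0.267 (SE, edgeR adjusted p = 0.477). The other 4 lay between these 2 changes. The standard errors were 0.267 to 0.540, and a missed threshold does not show that the levels before and after the peak were equal. The day 12 limit bears on this comparison as well, since it kept out models with a day 12 mean high for their day 0 mean. Day 12 and day 6 means were 7.49 and 6.84 CPM in Pbr021222.2, 2.16 and 1.02 CPM in Pbr041183.5, and 0.184 and 0.186 CPM in Pbr001456.2, all kept out. The lack of higher calls among the 6 is thus partly set by how they were chosen. Against day 0, which the choice of models used, the day 12 means were 0.527 to 1.14 times the day 0 means, below 1 in 5 of the 6.

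**Figure D3:**
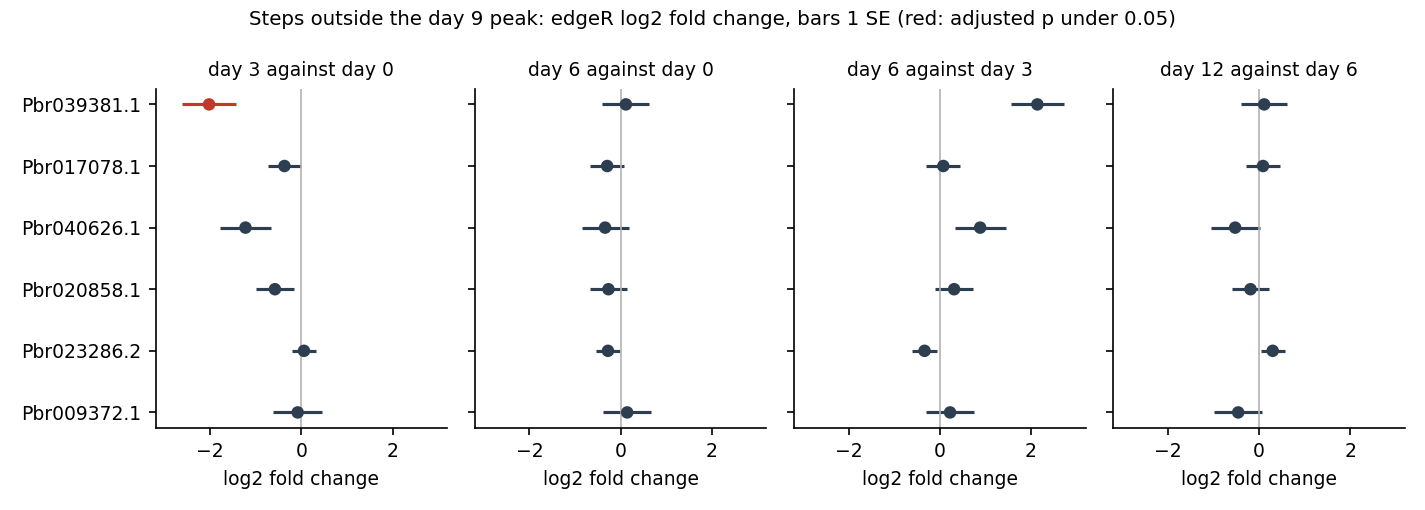
Log2 fold change from edgeR with bars of 1 standard error for the 6 models in 4 comparisons that leave day 9 out, positive where the later day is higher. Pbr039381.1 at day 3 against day 0 (red, -2.03) is the 1 value with an adjusted p under 0.05, and the day 12 against day 6 values lie between -0.52 and 0.30.

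Features that the rule does not name were compared with all Pbr models. Coding length still bears on the choice, through the length trend of the day 9 libraries given below. The 6 had coding lengths of 216 to 1188 bases with a median of 543, and 5 of them were shorter than the median of 948 bases over all Pbr models; the median of the 27440 Pbr models tested was 1161. Pbr009372.1 was in a single block, or 1 of 6, against 28.8% of all Pbr models and 19.5% of those tested. The other 5 had 270 to 2752 bases of their span outside the coding length. Of the 6, 4 lay on the plus strand, against 50.3% of all Pbr models.

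Length moved with day 9 in these libraries, and this touched some of the 6. A smooth trend of log2 CPM with model length, taken against the mean of the day 0 libraries, put the day 9 libraries 0.52 higher at the length of Pbr009372.1 and 0.028 higher at that of Pbr039381.1. With this trend removed from every library, the margin was 4.23 for Pbr039381.1, 3.13 for Pbr040626.1 and 2.73 for Pbr017078.1, still at least 2.5. It was 2.20 for Pbr020858.1, 2.00 for Pbr023286.2 and 1.80 for Pbr009372.1, below 2.5 though with day 9 still above every other library. The rule then took 8 models, 3 of the 6 and 5 others with coding lengths from 2604 to 6882 bases. With TMM-scaled CPM the same 6 models were taken, with margins from 2.66 to 4.35.

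**Figure D4:**
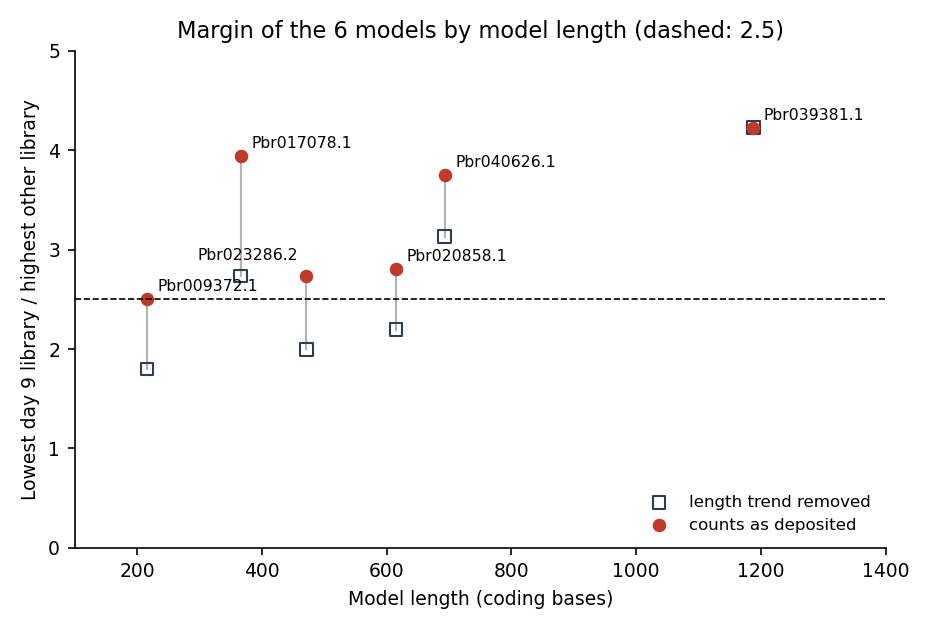
The margin, that is the CPM of the lowest day 9 library divided by that of the highest other library, against the coding length of the 6 models, from the counts as deposited (red) and with the length trend removed (open squares). The longest model keeps its margin (4.22 and 4.23), whereas Pbr009372.1, Pbr023286.2 and Pbr020858.1 drop below the dashed line at 2.5.

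None of the models next to the 6 on their scaffolds reached the margin of 2.5, which only 17 of all 42812 Pbr models reached. At so low a share, this says little about the neighbours. The 2 models on each side were taken, 24 in all, at gaps of 73 to 24460 bases, and 19 of them were tested. The widest margin among the 24 was 1.29. At day 9 against day 6, 4 of the 19 were called higher and 1 lower, or 21.1% and 5.26%, where 17.8% and 21.8% of all tested models were called higher and lower. At day 12 against day 9, 7 of the 19 were lower and 3 higher, or 36.8% and 15.8%, where 22.5% and 26.4% of all tested models were lower and higher. The shares of 19 models rest on few calls and were not tested against these backgrounds, and the neighbours were looked at after the 6 were known. Beside Pbr039381.1, which was at 9.21 times the mean of the other libraries on day 9, its downstream neighbour at a gap of 3737 bases on the opposite strand was at 2.54 times, and its log2 difference at day 9 against day 6 was 1.14 ± 0.412 (SE, edgeR adjusted p = 0.0416). The second model upstream of Pbr039381.1, at a gap of 15290 bases, went the other way. It was at 0.482 times, with a log2 difference of -1.01 ± 0.174 (SE, edgeR adjusted p = 0.000446). Further neighbours called higher at day 9 against day 6 lay beside Pbr040626.1 (1.76 times), Pbr020858.1 (1.60 times) and Pbr023286.2 (1.43 times). The 7 lower calls at day 12 against day 9 were not spread evenly. Several lay beside Pbr009372.1, with log2 differences of -2.17 ± 0.313, -2.46 ± 0.533 and -3.51 ± 0.579 (SE). None of these was called at day 9 against day 6 (edgeR adjusted p = 0.116, 0.917 and 0.232). Upstream of Pbr023286.2, a model on the same strand at a gap of 73 bases averaged 0.0210 CPM at day 9 and 0.101 CPM over the 12 other libraries.

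**Figure D5:**
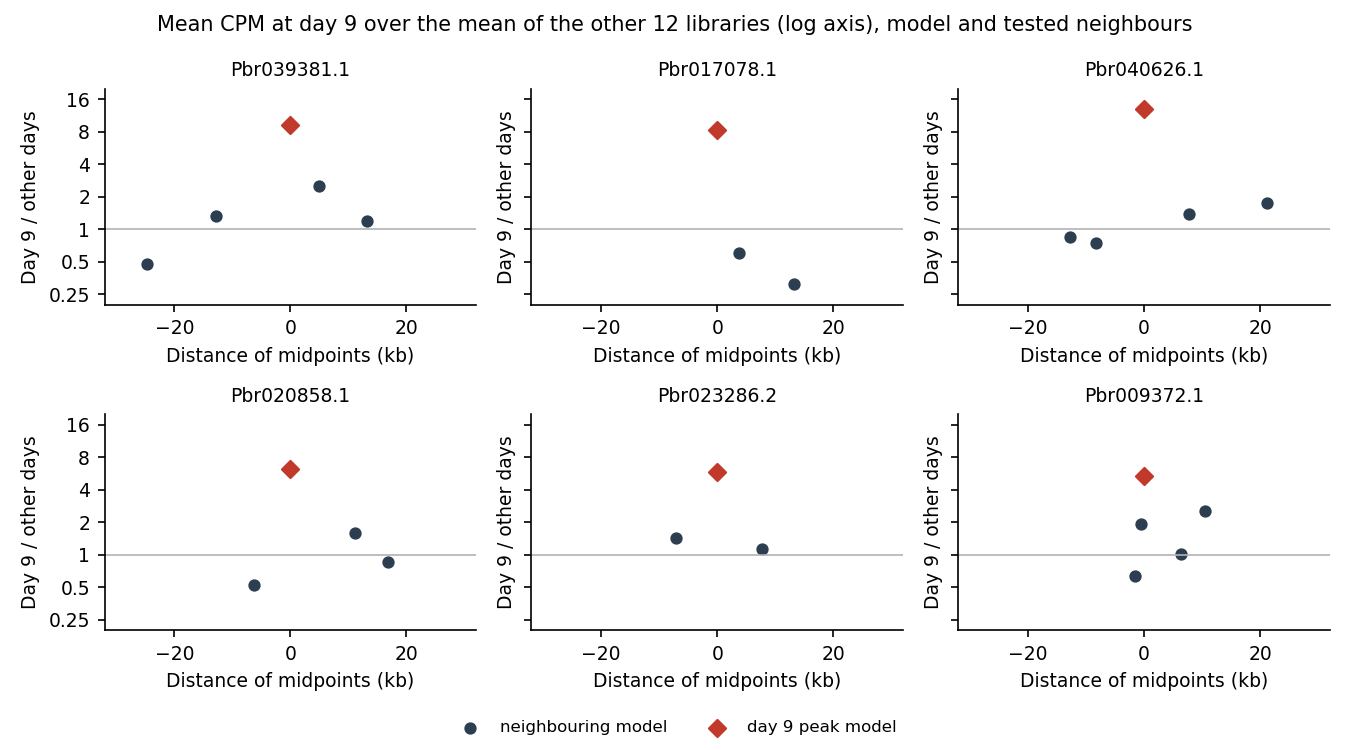
Mean CPM at day 9 divided by the mean of the 12 other libraries (log axis) for each of the 6 models (red diamonds, at distance 0) and the tested models among the 2 on each side (dark points), against the distance between midpoints in kb. The 6 models lie between 5.38 and 13.0, and the neighbours between 0.311 and 2.57.

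Just inside the margin of 2.5 lay Pbr009372.1 at 2.504 and Pbr023286.2 at 2.73. Of the 13 models with a margin between 2 and 2.5, the 2 closest to 2.5 were much more abundant. Pbr021220.1 on scaffold317.0 had 301.2, 302.8 and 312.2 CPM on day 9 and at most 127.9 CPM in the others, a margin of 2.35, and Pbr034201.1 on scaffold64.0 had 82.6, 92.5 and 77.6 CPM on day 9 and at most 35.1 CPM in the others, a margin of 2.21. A margin of 2 would have taken 19 models and a margin of 3 would have taken 3. With no limit on day 12, 9 Pbr models met the margin and the mean at day 9. The same 2 criteria applied to the other days took 70 models on day 0, none on day 3, none on day 6 and 236 on day 12. The reverse pattern, in which every other library held at least 2.5 times the highest library of the day and the others averaged at least 2 CPM, was met by 16 Pbr models on day 0, 5 on day 3, 0 on day 6, 481 on day 9 and 135 on day 12.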

How the data were processed

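The authors deposited 1 table with whole-number read counts and FPKM values per gene model and library. The FPKM values are the authors' normalization to model length and library total, per the file headers. Per the submitters' processing notes HISAT was used, and the series' design text names *Pyrus bretschneideri* as the genome. The sources used here do not give versions, the counting program or its use of strand. CPM was computed here from each column sum over all 44681 models. The rule for members, the comparisons and the named models were chosen with earlier results of these data known; named were the 2 members of widest margin, of highest day 9 mean, of narrowest margin and of lowest day 12 to day 0 ratio (day 0 mean of at least 1 CPM), and the 2 models with the highest margins under 2.5. Pbr020858.1 falls outside this and was named, after its values were seen, so that all members are described. All comparisons used edgeR 4.0.16 in R 4.3.3: filterByExpr, TMM, glmQLFit and glmQLFTest over all 15 libraries, called at an FDR under 0.05 over 29134 models, all 6 members among them. The standard error is the log2 fold change divided by the square root of F. DESeq2 1.42.0, RLE factors, no filter, fits on the 2 days compared, a replicate block, removal of the length trend (lowess, span 0.3) and left-out libraries were alternatives. The code was tested on simulated counts. No 2 libraries of a day agreed within counting noise (chi-square over degrees of freedom at least 4.21). No sequence or annotation was at hand, so none is printed.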

Additional observations from a re-analysis of the deposited data

How the results depend on the processing

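The number of models taken by the rule was 6, and 19 with a margin of 2 and 3 with a margin of 3; over the 15 left-out libraries it ran from 6 to 15, the highest without day 9 replicate 1. It stayed within 1.5 times of 6 under the other settings tried, among them 2 chosen after seeing the data, all models with or without the Pbr prefix (7) and no limit on day 12 (9). Pbr039381.1, Pbr017078.1 and Pbr040626.1 were taken under all 23 settings. Pbr023286.2 was taken under 21 of these, Pbr020858.1 under 20 and Pbr009372.1 under 19. A like number can hold other models: with the length trend removed, 3 of the 8 models taken were among the 6. The median length was 543 bases and 2847 with the length trend removed. For day 3 against day 0, the 1 call became 0 with the replicate block and with no filter on low counts, and 0 to 0 without a library. For day 6 against day 3, the 0 calls became 1 with DESeq2 and 0 to 1 without a library. The replicate block changed no other call; same-numbered libraries of the days compared had deviations that correlated at -0.0634 to 0.166, so the numbers were not taken to pair them. Values that were not called changed sign without single libraries. The log2 ranges at day 3 against day 0 were -0.28 to 0.15 for Pbr009372.1 and -0.094 to 0.155 for Pbr023286.2. At day 6 against day 0 they were -0.26 to 0.64 for Pbr039381.1, -1.10 to 0.12 for Pbr040626.1, -0.48 to 0.19 for Pbr020858.1 and -0.38 to 0.39 for Pbr009372.1. At day 6 against day 3 they were -0.23 to 0.41 for Pbr017078.1 and -0.30 to 0.47 for Pbr009372.1. At day 12 against day 6 they were -0.41 to 0.49 for Pbr039381.1, -0.92 to 0.24 for Pbr040626.1, -0.41 to 0.037 for Pbr020858.1 and -1.22 to 0.067 for Pbr009372.1. Apart from the alternatives built on other thresholds or fewer libraries, the cause of these changes was not tested. Off the peak, Pbr009372.1 had 2 to 11 counts a library, and its folds carry that counting error.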

Other observations

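Among the 9 Pbr models that met the margin and the mean at day 9, the widest margin belonged to a model outside the 6, which had a day 12 mean of 4.91 times its day 0 mean and so missed the day 12 limit. Pbr021222.2, on the plus strand of scaffold317.0 (147723 to 149965), had 1.30, 1.39 and 1.88 CPM on day 0, 3.04, 8.88 and 4.53 CPM on day 3, 3.79, 5.06 and 11.7 CPM on day 6, 61.8, 69.8 and 69.4 CPM on day 9, and 7.42, 7.88 and 7.16 CPM on day 12. Its margin was 5.30. It lies 2 models away from Pbr021220.1 (124365 to 127380, minus strand), which missed the margin at 2.35. The model listed between them was at 13.0 CPM on day 9 and 16.1 CPM over the 12 other libraries. The pair was noticed after its values were seen and the likeness was not tested.

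The models of these 2 paragraphs were named after their values were seen. The other two models kept out by the day 12 limit were less abundant. Pbr041183.5 averaged 8.88 ± 1.91 CPM on day 9 and 1.12 CPM over the 12 other libraries, and Pbr001456.2 averaged 2.22 ± 1.70 CPM on day 9 and 0.138 CPM over the others (SD, n = 3 each). In Pbr001456.2 day 9 replicate 3 held 66 of the 98 day 9 counts. Among models without the Pbr prefix, 1 met all 3 criteria: Novel00104, with 9.27 ± 2.08 CPM on day 9 (SD, n = 3) and a margin of 2.55.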
